A study of Mus musculus with 6 samples.

Results

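Chromatin accessibility was examined around 45 genes of the Wnt pathway in distal forelimb buds of mouse embryos at E11.5. The genes are 18 Wnt ligands, 12 receptors (the Frizzled genes Fzd1 to Fzd10 with Ror1 and Ror2), 8 secreted inhibitors of the Dkk and Sfrp families including Frzb, the 4 TCF/LEF genes Lef1, Tcf7, Tcf7l1 and Tcf7l2, and a further 3 genes, the secreted agonists Rspo2 and Rspo3 and the feedback inhibitor Axin2. A peak was assigned to a gene when its midpoint lay inside the gene or within 100 kb of the gene start, and within 450 kb for Wnt5a. This took 576 of the 61954 peaks of the table, and each of the 45 genes had between 3 and 65 of them. Assignment rests on distance alone: 42 of the 576 peaks lie in the windows of more than 1 of these genes, and for 401 of them the nearest start of a protein-coding gene is one of the 45.

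The libraries were made by ATAC-seq, in which the transposase Tn5 inserts sequencing adapters into open chromatin. Wild type and Hox13-/- were represented by 2 libraries each. In the mutant, a Hoxa13 null allele (Hoxa13 Str) and a Hoxd13 null allele (Hoxd13 lacZ) remove both HOX13 factors. The study's methods state that its mice were kept on a mixed C57BL/6 x 129 background. They name CD1 as wild type for ChIP and give no separate strain for the wild-type ATAC-seq embryos. Per the study's reporting summary, each library came from 50000 cells of the left and right buds of 1 embryo, with 2 biological replicates. The spread between replicates therefore mixes differences between embryos with those of library preparation. A further 2 libraries, of proximal forelimb buds, carry a deposited genotype label that names a Rosa Hoxa11 control although their titles say wild type, and they were not analysed here. The comparison asks which regions around Wnt pathway genes have a chromatin accessibility that depends on HOX13.

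Wnt proteins are secreted ligands that bind Frizzled receptors. In the canonical branch this stabilises beta-catenin, which acts on target genes together with the TCF/LEF factors, and in a second branch ligands such as Wnt5a signal through Frizzled and the co-receptors Ror1 and Ror2 to orient cells. Secreted Frizzled-related proteins (Sfrp genes and Frzb) bind the ligands and Dkk1 blocks the Lrp5 and Lrp6 co-receptors, whereas R-spondins strengthen the signal. In the limb bud, Wnt5a is known for its role in the outgrowth of the distal mesenchyme, Wnt3 and Rspo2 for the upkeep of the apical ectodermal ridge, and Wnt7a for dorsal identity.

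The values are regularized log (rLog) values as deposited, which are on a log2 scale, scaled for library size and shrunk towards the mean of each peak. All differences are Hox13-/- minus wild type on that scale, and shrinkage makes them smaller than the change in reads. The values carry no read counts, and the depth behind each peak is therefore unknown. Called lower or higher means an adjusted p under 0.05 in limma, fitted on and adjusted over all 61954 peaks. All 122 called peaks among the 576 had values of the 2 genotypes that did not overlap. The same held for 5062 of the 5146 lower and 7014 of the 7040 higher peaks of the whole table, so this is common to called peaks. The table records in which libraries a peak was called by MACS, and that is given beside some peaks below. In bulk tissue, fewer open cells and less accessibility per cell cannot be told apart. Each standard error (SE) below is from limma, which shares its spread across peaks. The SE therefore differs little from peak to peak and does not measure the spread of a single peak between embryos.

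The 200 bp around the midpoints of 6 peaks are shown because these carry the smallest p of their class and direction. They are given on the + strand of mm10, from GRCm38, in lower case. Capitals mark letters of the HOX13 type, on either strand. These are a pair of pyrimidines (C or T) followed by AATAAA, by AGTAAA, by CATAAA, by CGTAAA, by TATAAA or by TGTAAA. They were widened after the data had been seen. The narrower letters CAATAAA or TCGTAAA are in none of the 6 printed windows.
Wnt5a peak lower in Hox13-/-, chr14:28879615-28879814: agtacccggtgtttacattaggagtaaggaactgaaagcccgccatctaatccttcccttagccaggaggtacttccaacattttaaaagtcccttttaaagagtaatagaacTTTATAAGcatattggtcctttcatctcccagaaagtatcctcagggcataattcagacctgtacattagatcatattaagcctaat
Frzb peak lower in Hox13-/-, chr2:80384469-80384668: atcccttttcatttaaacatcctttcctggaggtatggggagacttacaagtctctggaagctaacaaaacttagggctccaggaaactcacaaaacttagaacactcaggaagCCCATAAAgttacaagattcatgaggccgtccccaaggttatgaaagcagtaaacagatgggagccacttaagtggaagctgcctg
Frzb peak higher in Hox13-/-, chr2:80398792-80398991: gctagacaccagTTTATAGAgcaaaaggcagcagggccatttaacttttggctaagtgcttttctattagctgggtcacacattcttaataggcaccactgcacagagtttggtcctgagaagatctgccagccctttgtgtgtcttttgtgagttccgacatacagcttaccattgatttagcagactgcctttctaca
Wnt2b peak higher in Hox13-/-, chr3:105040129-105040328: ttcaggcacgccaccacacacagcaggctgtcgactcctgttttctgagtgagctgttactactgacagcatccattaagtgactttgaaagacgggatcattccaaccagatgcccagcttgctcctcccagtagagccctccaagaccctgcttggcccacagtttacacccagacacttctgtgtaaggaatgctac
Ror2 peak lower in Hox13-/-, chr13:53321042-53321241: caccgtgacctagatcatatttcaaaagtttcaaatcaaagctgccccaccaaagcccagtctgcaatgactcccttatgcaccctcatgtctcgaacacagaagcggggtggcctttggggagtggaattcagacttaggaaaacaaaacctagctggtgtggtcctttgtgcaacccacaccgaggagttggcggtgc
Fzd7 peak higher in Hox13-/-, chr1:59508616-59508815: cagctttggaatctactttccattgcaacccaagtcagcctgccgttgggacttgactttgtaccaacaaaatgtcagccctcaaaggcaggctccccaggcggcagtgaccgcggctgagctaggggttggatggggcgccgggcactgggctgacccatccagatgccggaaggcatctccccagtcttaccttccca

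Of the 576 peaks, 55 (9.55%) lost and 67 (11.6%) gained accessibility in Hox13-/-, and 454 were not called. Over the whole table, 8.31% were lower and 11.4% were higher, so the shares around Wnt pathway genes are near those of the whole table, and the median difference was 0.014 beside -0.005 over all peaks. At an unadjusted p under 0.05 limma had 88 lower and 91 higher of the 576 peaks, beside 9229 lower and 10480 higher of all 61954 peaks. Beyond 2-fold there were 3 lower peaks and 1 higher peak, beside 0.224% and 0.313% of all peaks. Replicates of one genotype differed over the 576 peaks by a root mean square of 0.186 in wild type and 0.177 in Hox13-/-, whereas libraries of different genotypes differed by 0.313 to 0.333. Centring every library on its median changed the split to 65 lower and 58 higher, and over all peaks the split moved from 42.2% to 53.1% of calls lower. Without Hox13-/- replicate 1, 30 were lower and 43 higher, without Hox13-/- replicate 2, 35 and 43, and without wild-type replicate 2, 35 and 51. In those fits the shares of all peaks also fell, to between 4.62% and 5.63% for lower calls and between 7.85% and 8.08% for higher calls.

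Over the whole table, 8.31% of peaks were lower and 11.4% were higher. By class, the ligands had 203 peaks with 20 lower (9.85%) and 22 higher (10.8%). The receptors had 187 peaks with 21 lower (11.2%) and 22 higher (11.8%). The inhibitors had 86 peaks with 10 (11.6%) in each direction. The TCF/LEF genes had 76 peaks, of which 3 (3.95%) were lower and 10 (13.2%) were higher, and Rspo2, Rspo3 and Axin2 had 24 peaks with 1 lower and 3 higher. The TCF/LEF count of lower peaks is small and was 5 with median centring and 1 whichever library was left out, and the count of higher peaks was then 4 to 6. Of the 45 genes, 20 had called peaks in both directions, 11 had lower calls alone, 10 had higher calls alone, and Wnt2, Wnt7a, Wnt7b and Sfrp4 had none in limma, where an unadjusted p under 0.05 was reached at 1 lower peak of Wnt7b and 1 higher peak of Sfrp4.

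**Figure D1:**
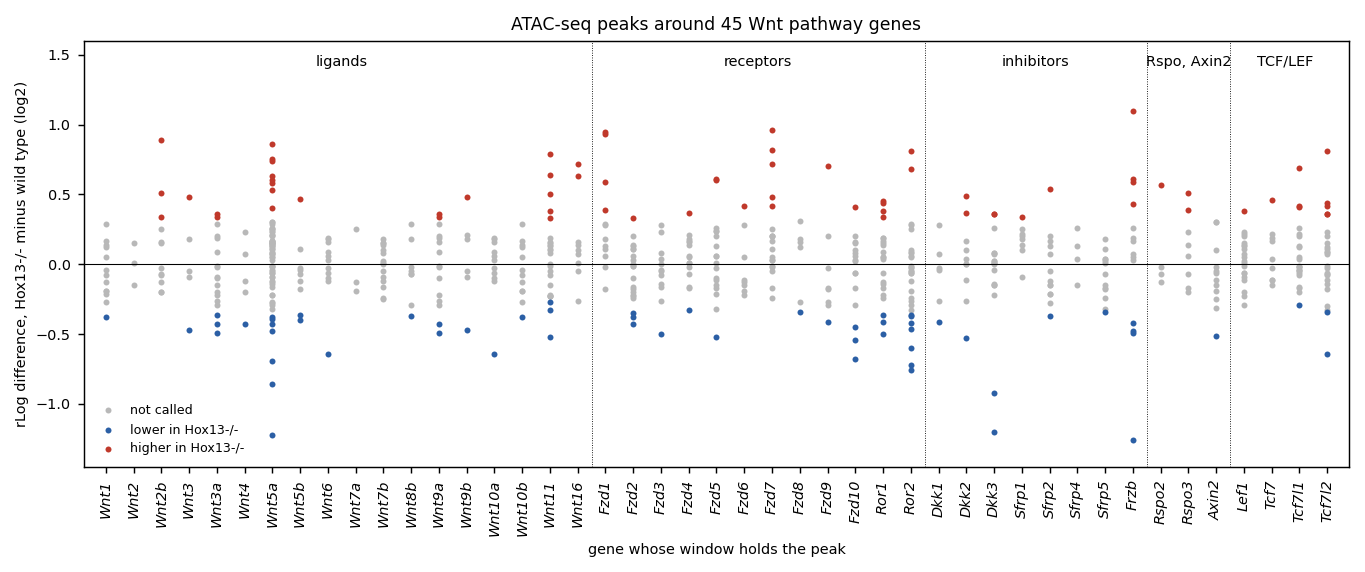
Each point is 1 peak in the window of the gene on the x axis, and the y axis is the rLog difference between Hox13-/- and wild type (log2), with called peaks in colour; a peak in several windows is drawn in each. Most genes had calls on both sides of 0 or few calls, and the lowest points are Frzb (-1.26), Wnt5a (-1.22) and Dkk3 (-1.20).

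Among the ligands, Wnt5a had the widest window and 65 peaks, of which 7 were lower and 8 were higher, and 41 of them lie inside Erc2, the neighbouring gene upstream that encodes a protein of the presynaptic active zone. Of the 65, 10.8% were lower and 12.3% were higher, beside 8.31% and 11.4% over the whole table. The stretches beyond 200 kb hold 8 peaks downstream and 18 upstream, and whether calls cluster by position was not tested. Between 200 and 450 kb downstream of the Wnt5a start, in the intergenic interval before Cacna2d3, 5 of 8 peaks were lower and 0 were higher, with a median difference of -0.39, and at an unadjusted p under 0.05 limma had 6 lower and 0 higher there. Upstream, 2 of 44 peaks were lower and 7 were higher, and all 5 calls more than 200 kb away were higher, where limma had 1 lower and 6 higher peaks at an unadjusted p under 0.05. The lower calls upstream depended on the scaling, at 4 with median centring or with the GC correction, and 1 lower peak more than 200 kb away was called with median centring or quantile normalization. Without wild-type replicate 1 or Hox13-/- replicate 1 there was 1 lower call upstream.

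The strongest of these peaks was chr14:28879472-28879956, 375 kb downstream. Its rLog values were 6.23 and 6.11 in wild type against 4.93 and 4.97 in Hox13-/-, a difference of -1.22 ± 0.130 (SE; limma adjusted p = 4.7e-18). It was called by MACS in both wild-type libraries and in 0 of the 2 Hox13-/- libraries. Its printed window holds 1 match of the HOX13-type letters.

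A second downstream peak, chr14:28714610-28714954 at 210 kb, measured 5.32 and 5.09 in wild type against 4.39 and 4.30 in Hox13-/-, a difference of -0.86 ± 0.131 (limma adjusted p = 4.4e-09), and it too was called by MACS in the wild-type libraries alone. The other 3 lower peaks of this stretch differed by -0.38 to -0.48, and their calls were lost when single libraries were left out. At chr14:28775620-28776124 the difference was -0.25 without wild-type replicate 1 and -0.27 without Hox13-/- replicate 1. At chr14:28884305-28884712 it was -0.36 and -0.40 without the same libraries. At chr14:28887469-28887691 it was -0.16 and -0.37 without them, and -0.39 without Hox13-/- replicate 2. A sixth peak of the stretch, chr14:28863528-28863957, was not called with all libraries (-0.27) but was called lower without wild-type replicate 1 (-0.48). The stretch had 3 lower calls without wild-type replicate 1 and 2 without Hox13-/- replicate 1, and the whole Wnt5a window had 4 and 3.

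Nearer the gene, chr14:28535938-28536432, 31.4 kb downstream of the start, was the Wnt5a peak with the largest gain. It measured 5.54 and 5.31 in wild type against 6.42 and 6.16 in Hox13-/-, a difference of 0.86 ± 0.130 (limma adjusted p = 2.6e-09). Inside Erc2, a run of higher peaks lay between 229.8 and 284.7 kb upstream of Wnt5a, led by chr14:28240050-28240586 with 6.27 and 5.87 in wild type against 6.92 and 6.72 in Hox13-/- (difference 0.75 ± 0.128, limma adjusted p = 2.1e-07). The other 4 peaks of this run were higher by 0.53 to 0.74, and one of them, chr14:28248316-28248653, was not called without Hox13-/- replicate 1 (0.39).

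Between this run and the gene the directions alternated. Lower peaks lay 155.4 kb upstream (6.01 and 5.94 in wild type, 5.35 and 5.21 in Hox13-/-, difference -0.69) and 153.7 kb upstream (-0.43, and -0.24 without wild-type replicate 1 or -0.33 without Hox13-/- replicate 1, both not called). Higher peaks lay 130.4 kb upstream (0.40) and 34.3 kb upstream (5.64 and 5.66 against 6.25 and 6.31, difference 0.63). The first of these higher peaks was not called without wild-type replicate 1 (0.38), Hox13-/- replicate 1 (0.43) or Hox13-/- replicate 2 (0.37), nor with the GC correction (0.30). The promoter peak of Wnt5a itself had 6.09 and 6.14 in wild type against 5.98 and 6.03 in Hox13-/-, a difference of -0.12 ± 0.129 that did not pass the test (limma adjusted p = 0.56).

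**Figure D2:**
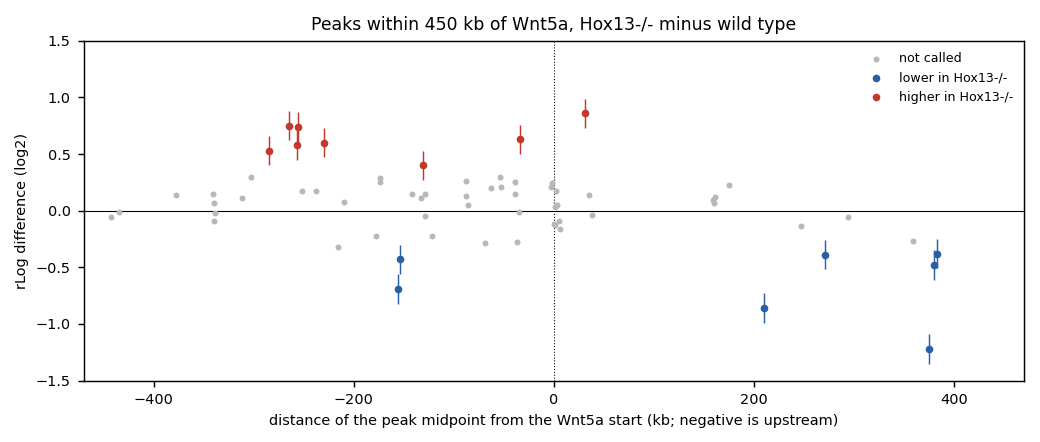
The x axis is the distance of each peak midpoint from the Wnt5a start in kb (negative is upstream), and the y axis is the rLog difference (log2). Bars on called peaks are ± 1 SE from limma, with a spread shared across peaks. Of the 8 higher peaks, 5 lie between 229.8 and 284.7 kb upstream, and the 5 lower peaks farthest to the right lie between 210 and 382.8 kb downstream.

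Without Wnt5a, the other 17 ligands had 138 peaks, with 13 lower and 14 higher. Wnt11, a ligand of the branch that orients cells, had 25 peaks, of which 3 were lower and 5 were higher. Its strongest peak, chr7:98783960-98784960, lies 50.7 kb upstream and measured 7.11 and 7.14 in wild type against 7.98 and 7.85 in Hox13-/-, a difference of 0.79 ± 0.125 (limma adjusted p = 1.5e-08). Its counts moved with single libraries, to 1 lower and 3 higher without wild-type replicate 1, 2 and 3 without Hox13-/- replicate 1, and 0 and 3 without Hox13-/- replicate 2.

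Wnt2b, a canonical ligand, had 12 peaks with 0 lower and 3 higher (0 and 4 in limma at an unadjusted p under 0.05), all 3 between 78.3 and 99.3 kb upstream. The strongest, chr3:105039990-105040466, lies in an intron of Cttnbp2nl and had 5.70 and 5.81 in wild type against 6.70 and 6.61 in Hox13-/-, a difference of 0.89 ± 0.129 (limma adjusted p = 3.8e-10). Its window, printed above, holds no HOX13-type match and 1 match of the TCF/LEF letters. Of these 3 calls, 1 was left without wild-type replicate 1 and 1 without Hox13-/- replicate 2.

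Wnt16 had 2 higher peaks among 9, and the stronger, chr6:22326873-22327124 in an intron of the neighbouring Fam3c, went from 3.72 and 3.54 to 4.26 and 4.44 (difference 0.72 ± 0.127, limma adjusted p = 6.6e-07). Wnt6 and Wnt10a are neighbours and share 1 lower peak, chr1:74803117-74803509 in an exon of Wnt10a, with 6.36 and 6.33 in wild type against 5.72 and 5.69 in Hox13-/- (difference -0.64 ± 0.129, limma adjusted p = 1.9e-05). Wnt3, which acts in the limb ectoderm, and its neighbour Wnt9b share the lower peak chr11:103697442-103698183, which lies in an exon of Gosr2 (7.13 and 7.13 against 6.68 and 6.64, difference -0.47). The same 2 ligands share 1 higher peak, the intergenic chr11:103711997-103712513 (5.19 and 5.27 against 5.79 and 5.63, difference 0.48), and these were the only called peaks among the 5 of Wnt3 and the 6 of Wnt9b.

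The calls at the remaining leading peaks of ligands were lost when some single libraries were left out. Such fits also have fewer degrees of freedom, so a call can be lost at a nearly unchanged difference. The peak with the smallest p of Wnt4 (-0.43) was not called without wild-type replicate 2 (-0.37) or Hox13-/- replicate 1 (-0.34). That shared by Wnt3a and Wnt9a (-0.49) was not called without Hox13-/- replicate 1 (-0.27), and that of Wnt5b (0.47) was not called without Hox13-/- replicate 2 (0.43). The peak shared by Wnt1 and Wnt10b (-0.38) was not called without wild-type replicate 1 (-0.23), Hox13-/- replicate 1 (-0.38) or Hox13-/- replicate 2 (-0.37), and that of Wnt8b (-0.37) was lost whichever library was left out (-0.38 to -0.36).

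Among the receptors, the 10 Frizzled genes had 135 peaks, with 11 lower (8.15%) and 16 higher (11.9%), beside 8.31% and 11.4% over all peaks. Fzd1, Fzd7 and Fzd6 had higher calls alone, Fzd6 at 1 of its 8 peaks (0 lower and 2 higher in limma at an unadjusted p under 0.05). Fzd1 had 12 peaks with 4 higher, and at an unadjusted p under 0.05 limma had 6 higher and 0 lower. At chr5:4685610-4686149, 72.2 kb downstream of the start, the values went from 5.04 and 5.24 to 6.22 and 5.97, a difference of 0.95 ± 0.130 (limma adjusted p = 3.7e-11).

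At chr5:4741627-4742150, 16.1 kb downstream of Fzd1, they went from 4.97 and 5.00 to 6.01 and 5.82, a difference of 0.93 ± 0.130 (limma adjusted p = 1e-10). MACS called both intergenic peaks in the Hox13-/- replicates alone. The other 2 higher peaks lie in Cdk14, upstream of Fzd1. The Fzd1 promoter peak, one of the most open of the 45 genes, had 8.49 and 8.19 in wild type against 8.02 and 8.30 in Hox13-/-, so the genotypes overlapped there.

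Fzd7 had 19 peaks with 5 higher, and at an unadjusted p under 0.05 limma had 5 higher and 1 lower. The strongest, chr1:59508422-59509008, lies 26.3 kb downstream and had 5.77 and 5.61 in wild type against 6.69 and 6.61 in Hox13-/-, a difference of 0.96 ± 0.129 (limma adjusted p = 1.3e-11), with MACS calls in the Hox13-/- libraries alone. Its printed window has no HOX13-type match and a GC content of 59%. The Fzd7 promoter peak had the highest wild-type mean of all 37 promoter peaks, 8.51, with 8.42 and 8.60 in wild type against 8.43 and 8.10 in Hox13-/-, and the genotypes overlapped. Leaving out single libraries left 4 or 5 higher peaks for Fzd7 and 3 or 4 for Fzd1.

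The remaining Frizzled genes had calls in both directions or lower calls alone. Fzd10 had 3 lower peaks and 1 higher peak among 16, led by chr5:128667265-128667811, which went from 6.38 and 6.50 to 5.72 and 5.81 (difference -0.68 ± 0.129, limma adjusted p = 4.6e-06), and its higher peak was not called whichever library was left out. Fzd9 had a higher peak 40.2 kb upstream, chr5:135291222-135291644, which went from 4.91 and 5.21 to 5.75 and 5.76 (difference 0.70 ± 0.131, limma adjusted p = 3.3e-06). Fzd5 had its strongest peak 71.5 kb upstream in an intron of Plekhm3 (6.57 and 6.58 against 7.29 and 7.08, difference 0.61).

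The leading peaks of Fzd2, Fzd3, Fzd4 and Fzd6 lost their calls when some single libraries were left out, in part at a nearly unchanged difference. That of Fzd2 (-0.43) was not called without wild-type replicate 2 (-0.35) or Hox13-/- replicate 2 (-0.21), and that of Fzd3 (-0.50) was not called without wild-type replicate 2 (-0.43) or Hox13-/- replicate 1 (-0.37). That of Fzd4 (0.37) was not called without wild-type replicate 1 (0.35), wild-type replicate 2 (0.40) or Hox13-/- replicate 2 (0.26). That of Fzd6 (0.42) was not called without wild-type replicate 1 (0.36), Hox13-/- replicate 1 (0.41) or Hox13-/- replicate 2 (0.44). The calls at these peaks of Fzd2, Fzd4 and Fzd6 were also lost with the GC correction (-0.32, 0.29 and 0.33).

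Ror2, the tyrosine kinase co-receptor for Wnt5a, had 30 peaks, of which 7 were lower and 2 were higher. Upstream of the gene, chr13:53320928-53321354 at 35 kb went from 5.52 and 5.51 to 4.55 and 4.96, a difference of -0.76 ± 0.131 (limma adjusted p = 3.3e-07). In an intron, chr13:53230838-53231032 went from 4.95 and 4.92 to 4.28 and 4.16, a difference of -0.72 ± 0.131 (limma adjusted p = 1.5e-06). Both were called by MACS in the wild-type libraries alone.

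A further peak of Ror2 ran the other way within the same gene. The intronic peak chr13:53201605-53202413, 84.1 kb into the gene and called in all 4 libraries, went from 7.11 and 7.12 to 7.94 and 7.92, a difference of 0.81 ± 0.125 (limma adjusted p = 5.5e-09). Without Hox13-/- replicate 2, Ror2 had 4 lower and 2 higher peaks. Ror1, the related receptor, had 22 peaks with 3 lower and 4 higher, and its peak with the smallest p (-0.50) was not called without wild-type replicate 1 (-0.34) or Hox13-/- replicate 2 (-0.39). Leaving out a library left 0 to 2 lower and 1 or 2 higher peaks of Ror1, with 0 lower and 1 higher without wild-type replicate 1.

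Among the secreted inhibitors, Frzb had the largest share of called peaks of all 45 genes. Frzb encodes a Frizzled-related protein that binds Wnt ligands outside the cell and is known from cartilage. Of its 14 peaks 4 were lower and 4 were higher. The peak chr2:80384374-80384762, 63.1 kb downstream of the start and beyond the end of the gene, had the largest loss of all 576. Its values were 5.51 and 5.56 in wild type against 4.36 and 4.19 in Hox13-/-, a difference of -1.26 ± 0.131 (limma adjusted p = 4.2e-19), with MACS calls in the wild-type libraries alone.

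The peak with the largest gain of all 576 lies in the same interval, 48.7 kb downstream of the Frzb start. At chr2:80398541-80399241 the values went from 6.29 and 5.84 to 7.28 and 7.05, a difference of 1.10 ± 0.128 (limma adjusted p = 2.8e-15). Both printed windows of Frzb hold 1 HOX13-type match and have a GC content of 44.5%, so a match was present at a peak of either direction. Within the gene, the intronic peak chr2:80438953-80439411 went from 5.28 and 5.08 to 5.82 and 5.72 (difference 0.59 ± 0.130, limma adjusted p = 0.00014).

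The promoter peak of Frzb, chr2:80448156-80448768, went from 6.07 and 6.06 to 6.69 and 6.66, a difference of 0.61 ± 0.128 (limma adjusted p = 5.4e-05). By position, 2 of the higher peaks lay at the start of Frzb or within 10 kb of it, whereas the other 2 and all 4 lower peaks lay near the end of the gene or beyond it. Leaving out single libraries left 2 to 4 lower and 3 to 5 higher peaks for Frzb, with 2 lower calls without wild-type replicate 2 or Hox13-/- replicate 1, and all 4 peaks described here kept their calls.

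Dkk3, a divergent member of the Dickkopf family, had 18 peaks with 2 lower and 2 higher. The intergenic peak chr7:112192221-112192583, 33.3 kb upstream, went from 5.77 and 5.90 to 4.72 and 4.56, a difference of -1.20 ± 0.131 (limma adjusted p = 2.5e-17). The intronic peak chr7:112144848-112145192, 14 kb into the gene, went from 5.07 and 5.25 to 4.26 and 4.22, a difference of -0.92 ± 0.131 (limma adjusted p = 2.3e-10). Both were called by MACS in the 2 wild-type libraries and in neither Hox13-/- library, and the 200 bp around the upstream midpoint hold 2 HOX13-type matches, around the intronic midpoint 0. Of the 2 higher peaks, 0 were called without wild-type replicate 1 or without Hox13-/- replicate 1, and 1 without wild-type replicate 2. The Dkk3 promoter peak was at 5.00 and 4.94 in wild type against 5.04 and 5.06 in Hox13-/-, which did not pass the test (limma adjusted p = 0.70).

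Dkk2 had 1 lower peak and 2 higher peaks among 10, led by the intronic chr3:132129903-132130150, which went from 4.56 and 4.62 to 4.12 and 4.00 (difference -0.53 ± 0.130, limma adjusted p = 0.00063). Leaving out any library left 1 of the 2 higher peaks. Sfrp2, a ligand-binding inhibitor, had its strongest peak 17.8 kb downstream, chr3:83783694-83784452, which went from 6.56 and 6.39 to 7.08 and 6.95 (difference 0.54 ± 0.127, limma adjusted p = 0.00033). The single calls of Dkk1 (-0.41), Sfrp1 (0.34) and Sfrp5 (-0.34) were lost when some single libraries were left out, in part at a nearly unchanged difference. That of Dkk1 was lost without wild-type replicate 2 (-0.23), Hox13-/- replicate 1 (-0.42) or Hox13-/- replicate 2 (-0.39), that of Sfrp1 without wild-type replicate 1 (0.32) or Hox13-/- replicate 2 (0.28), and that of Sfrp5 without wild-type replicate 2 (-0.23), Hox13-/- replicate 1 (-0.37) or Hox13-/- replicate 2 (-0.30).

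**Figure D3:**
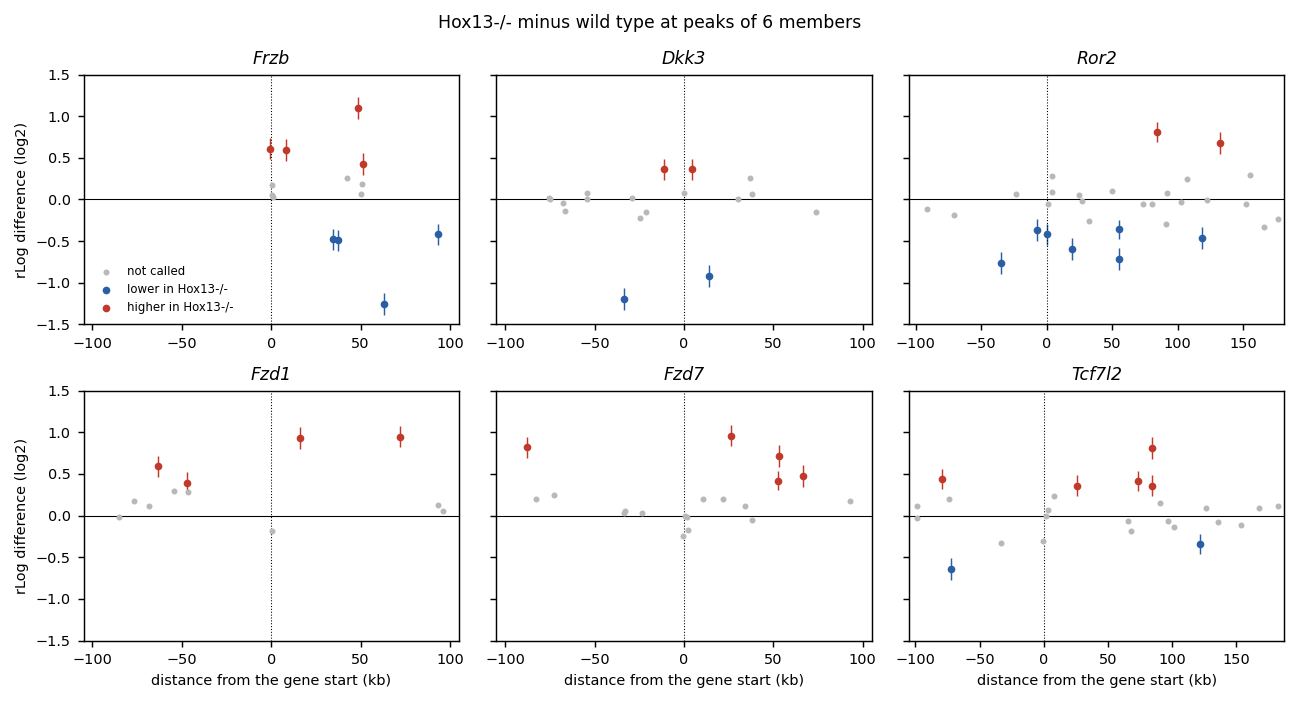
Each panel shows the peaks of 1 gene by distance from its start in kb (positive is in the direction of transcription) against the rLog difference (log2). Bars on called peaks are ± 1 SE from limma, with a spread shared across peaks. Frzb has lower and higher peaks side by side, Fzd1 and Fzd7 have 4 and 5 higher peaks and 0 lower ones, and Ror2 has 7 lower peaks and 2 higher ones.

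The TCF/LEF factors carry the canonical signal to DNA. Tcf7l2 had 25 peaks with 2 lower and 5 higher. Its strongest peak, the intronic chr19:55825892-55826538, 84.4 kb into the gene, went from 5.96 and 5.51 to 6.45 and 6.63, a difference of 0.81 ± 0.129 (limma adjusted p = 2.3e-08). Upstream, chr19:55669058-55669402 at 72.6 kb went the other way, from 5.55 and 5.61 to 4.97 and 4.91 (difference -0.64 ± 0.131, limma adjusted p = 2.8e-05).

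A second upstream peak of Tcf7l2, chr19:55662361-55663074 at 79.1 kb, was higher (7.34 and 7.27 against 7.75 and 7.74, difference 0.44) and was not called without Hox13-/- replicate 1 (0.43). With median centring the gene had 4 lower and 3 higher peaks, and whichever library was left out it had 1 lower and 2 or 3 higher. Tcf7l1, which acts mostly as a repressor, had 22 peaks with 1 lower and 3 higher, and its strongest peak, the intronic chr6:72681855-72682604, went from 5.43 and 5.23 to 6.01 and 6.03 (difference 0.69 ± 0.130, limma adjusted p = 3.9e-06). Its lower peak (-0.29) was not called whichever library was left out (-0.30 to -0.28), and 1 or 2 higher peaks remained called.

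Lef1 and Tcf7 had 1 higher peak each, among 20 and 9. That of Lef1 (0.38) was not called whichever library was left out (0.36 to 0.41), and that of Tcf7 (0.46) was not called without wild-type replicate 1 (0.29) or Hox13-/- replicate 2 (0.37). Rspo2 had 1 higher peak among 4, in its own intron, chr15:43114733-43115057, which went from 5.11 and 4.93 to 5.73 and 5.46 (difference 0.57 ± 0.131, limma adjusted p = 0.00022) and was not called without Hox13-/- replicate 1 (0.44). Rspo3 had 2 higher peaks among 8, 18.7 kb upstream (0.51, not called without Hox13-/- replicate 2 at 0.36) and 2.1 kb downstream of its start (0.39, not called without wild-type replicate 2 at 0.23 or Hox13-/- replicate 1 at 0.26). Axin2 had 1 called peak among 12, its promoter.

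**Figure D4:**
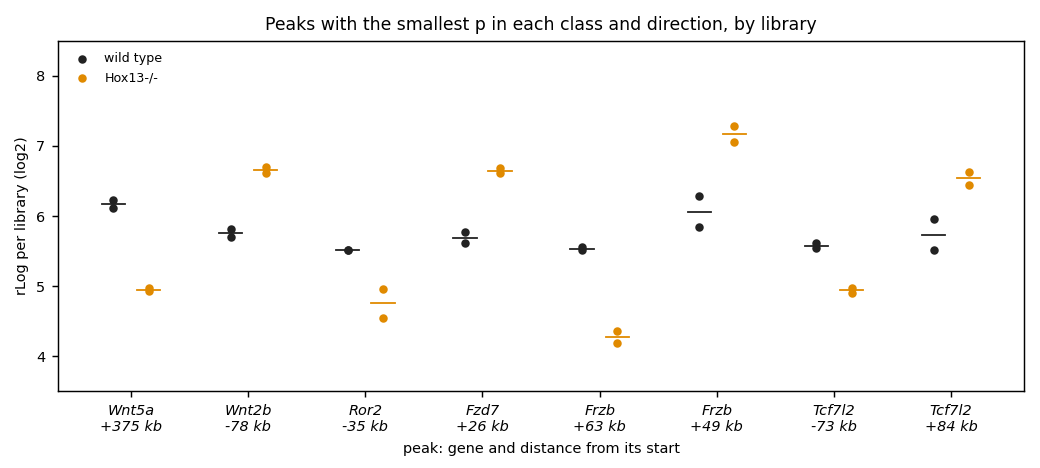
The rLog value (log2) of each library is shown at the peak with the smallest p of each class and direction, as points with a line at the mean of the 2 libraries of a genotype. At every peak drawn the genotypes are apart, and the replicates are farthest apart at the higher peaks of Frzb (6.29 and 5.84 in wild type) and Tcf7l2 (5.96 and 5.51).

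Differences at promoters were small. A promoter peak, the strongest peak within 1 kb of the gene start, was found for 37 of the 45 genes. The ligands Wnt1, Wnt2, Wnt3, Wnt3a, Wnt6, Wnt8b, Wnt10a and Wnt10b had none. Differences ran from -0.52 to 0.61, and 23 of the 37 lay within 0.2 of 0. Of the 37, 7 (18.9%) were lower and 1 (2.7%), that of Frzb, was higher. There were 5 lower without wild-type replicate 1 and 3 without each of the other libraries, and 2 higher without wild-type replicate 1.

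The lower promoter peaks were those of Wnt11, Axin2, Wnt9a, Ror2, Wnt5b, Fzd8 and Fzd4. Axin2, a direct target and feedback inhibitor of canonical signalling, went from 6.83 and 6.79 to 6.28 and 6.33, a difference of -0.51 ± 0.128 (limma adjusted p = 0.00099), and kept its call at an adjusted p under 0.05 under every other scaling and correction, with the replicate block and whichever library was left out, while it lies well within 2-fold. Wnt11 went from 5.09 and 5.13 to 4.67 and 4.51, a difference of -0.52 ± 0.131 (limma adjusted p = 0.0011), and was not called without Hox13-/- replicate 2 (-0.44). Ror2 went from 7.24 and 7.16 to 6.73 and 6.83 (difference -0.42, limma adjusted p = 0.0078), and was not called without wild-type replicate 1 (-0.38), without Hox13-/- replicate 1 (-0.37) or with the GC correction (-0.28).

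The other lower promoters were less firm. Wnt9a (-0.43) was not called without wild-type replicate 2 (-0.40), without Hox13-/- replicate 2 (-0.32) or with the GC correction (-0.28), and Wnt5b (-0.40) was not called without wild-type replicate 2 (-0.34), without Hox13-/- replicate 1 (-0.25) or with the GC correction (-0.25). Fzd8 (-0.34) and Fzd4 (-0.33) were lost whichever library was left out, at -0.40 to -0.28 and -0.37 to -0.28, and with the GC correction, at -0.32 and -0.20. The correction left 2 lower promoters and 1 higher promoter.

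This direction is that of promoters in general. Within 1 kb of any protein-coding gene start, 14 of 122 peaks around the Wnt pathway genes were lower and 1 was higher (0.82%), beside 8.84% and 0.723% of the 15486 such peaks in the table. Farther away, 9.03% of 454 peaks were lower and 14.5% were higher, beside 8.13% and 14.9% of 46468 peaks. The median difference was -0.104 near starts and 0.064 farther away, beside -0.118 and 0.053 over all peaks.

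**Figure D5:**
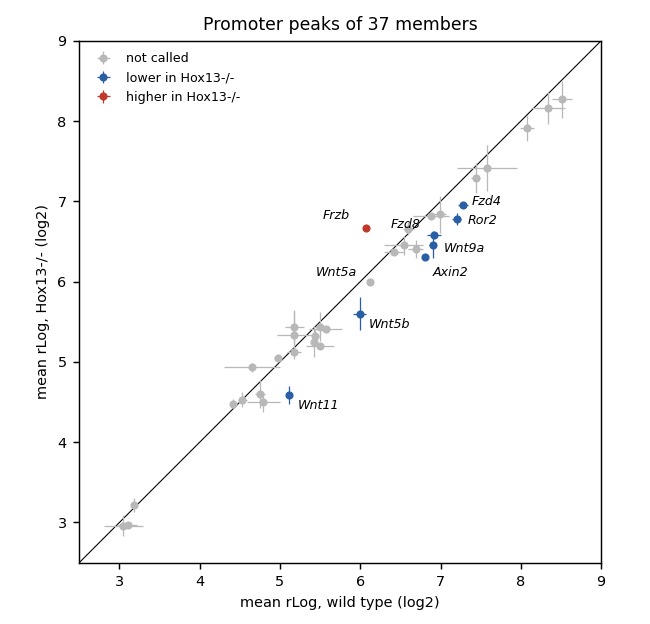
Mean rLog (log2) of the promoter peak of each of 37 genes in wild type (x axis) and Hox13-/- (y axis), with SD over 2 libraries as bars and the line of equal values. Frzb lies above the line (6.07 and 6.67), 7 called promoters lie below it, and Wnt5a lies close to it (6.12 and 6.00).

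Called peaks had features in common that the assignment did not use. The median peak lengths were 338 bp for lower, 442 bp for higher and 221 bp for uncalled peaks, and the median GC contents were 50.6%, 48.2% and 54%. Called peaks also had the stronger signal, with median rLog means of 5.26 for lower, 5.47 for higher and 4.47 for uncalled peaks. Over all peaks of the table the lengths were 315, 395.5 and 221 bp and the GC contents 48.6%, 47.8% and 53.3%. The rLog means there were 5.16, 5.4 and 4.55. Whether length or signal made a peak easier to call was not tested. Of the 67 higher peaks 38 lie in introns and 2 in exons, whereas of the 55 lower peaks 15 lie in introns and 12 in exons. These are 56.7% and 2.99% of higher peaks and 27.3% and 21.8% of lower peaks, beside 45.6% and 2.12% of all higher and 38.2% and 15.7% of all lower peaks of the table.

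MACS calls followed the rLog direction. Of the 55 lower peaks 16 (29.1%) had a MACS call in both wild-type libraries alone and 0 in both Hox13-/- libraries alone, and of the 67 higher peaks 27 (40.3%) were called in both Hox13-/- libraries alone and 0 in both wild-type libraries alone. Over all peaks of the table these shares were 24.3% of lower and 48.7% of higher peaks. Uncalled peaks were also uneven: 7.93% of the 454 had MACS calls in both Hox13-/- libraries alone and 1.76% in both wild-type libraries alone. Over all uncalled peaks of the table the shares were 7.05% and 1.2%. The MACS calls come from the same reads as the rLog values.

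HOX13-type letters were searched in the 200 bp around each midpoint, on both strands. The letters printed above, which were widened after the data had been seen, were in 38.2% of lower, 19.4% of higher and 14.1% of uncalled peaks around Wnt pathway genes, beside 35.4%, 18.2% and 15.9% over all peaks and 17.8% of all windows of the table. The narrower letters CAATAAA or TCGTAAA were in 10.9%, 10.4% and 3.52%, beside 10.9%, 6.29% and 4.81%. The TCF/LEF letters CTTTGAT or CTTTGAA were in 10.9%, 10.4% and 8.37%, beside 7.25%, 10.1% and 6.4%, and in 6.89% of all windows. A match is a description of the letters alone.

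A list of 48 other Wnt pathway genes, of which 45 had peaks, gave 579 peaks that share none with the 576. Of these, 43 were lower (7.43%) and 63 were higher (10.9%), beside 8.31% and 11.4% over the whole table. With median centring the split turned to 65 lower and 53 higher. There were 22 lower without wild-type replicate 2, 26 without Hox13-/- replicate 1 and 27 without Hox13-/- replicate 2, and 35 higher without wild-type replicate 1 and 36 without Hox13-/- replicate 1. Tle4 and Tle3, co-repressors that bind TCF factors, had 8 higher of 13 peaks with 0 lower, and 7 higher and 2 lower of 22 peaks. The intronic Tle4 peak chr19:14518390-14518889 went from 5.17 and 5.34 to 6.51 and 6.55, a difference of 1.27 ± 0.129 (limma adjusted p = 6.8e-20). It had the smallest p of this list. At an unadjusted p under 0.05, limma had 1 lower and 8 higher peaks of Tle4. Tle4 had 4 or 5 higher peaks whichever library was left out, and Tle3 had 3 to 5 higher and 1 or 2 lower, the fewest without Hox13-/- replicate 2.

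Gpc6, a glypican, had 8 higher and 3 lower of 34 peaks, with one from 5.46 and 5.54 to 6.76 and 6.74 (difference 1.25 ± 0.129), and without wild-type replicate 1 it had 6 higher peaks and 1 lower peak. Prickle1, of the planar polarity pathway, had 4 higher peaks and 1 lower peak of 24, with one from 6.24 and 6.07 to 7.30 and 7.44 (difference 1.22 ± 0.127). Wif1, a secreted inhibitor, had 1 lower peak and 2 higher peaks of 12. The lower peak was the largest loss of the list, from 5.25 and 5.16 to 4.18 and 4.14 in an intron (difference -1.05 ± 0.131). The higher peaks (0.40 and 0.36) were both not called without wild-type replicate 1, without Hox13-/- replicate 1 or with the GC correction, and 1 of them was called without wild-type replicate 2. The secretion factor Wls and Ctnnb1, which encodes beta-catenin, had 1 lower and 1 higher, and 0 lower and 2 higher peaks, and without Hox13-/- replicate 2 the lower peak of Wls and 1 of the higher peaks of Ctnnb1 were not called.

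Promoter peaks of cell type markers were read in the same libraries. Of 8 limb mesenchyme markers 7 had a promoter peak, all but Tbx5, with mean rLog values of 6.35 to 6.38 in wild type and 6.39 to 6.43 in Hox13-/-. Promoter peaks were found for 2 of 6 ectoderm and ridge markers, 1 of 5 muscle precursor markers, 1 of 5 blood markers and 1 of 4 neural crest markers, at mean values of 2.98 to 4.31 in all 4 libraries, and for neither hindlimb marker. Endothelial markers had 2 of 6, at 6.15 to 6.24 in wild type and 6.09 to 6.28 in Hox13-/-. None of these promoter peaks was called apart from that of the mesenchyme marker Twist1, which was lower (6.09 and 6.18 in wild type against 5.92 and 5.55 in Hox13-/-, difference -0.40), and the part of other cell types in the results above was not tested.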

How the data were processed

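ATAC-seq libraries of E11.5 distal forelimb buds were compared, 2 of wild type and 2 of Hox13-/-. Per the study's methods and the submitters' processing notes, the authors mapped read pairs to mm10 using Bowtie2 2.3.1, called peaks in each library against an input with MACS2 2.1.1.20160309 and merged them with HOMER 4.9.1. The authors deposited rLog values of DESeq2 on a log2 scale for 61954 merged peaks on 19 autosomes. The handling of duplicates, of blacklisted regions and of the Tn5 offset is not given in the sources used here. The deposited columns of the authors' own comparison (log2 fold change, p-value and adjusted p-value) were not used.

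Genotypes were compared with limma 3.58.1 in R 4.3.3 with a variance trend, two-sided, with Benjamini-Hochberg adjustment over all peaks, on rLog values in place of counts. The fit was tested on simulated data. Gene positions came from GENCODE M21 and letters from GRCm38, read with pysam 0.24.0 in Python 3.11.15. The genes and lists were chosen with earlier results of these data known. Named were every gene by its counts, every promoter peak, the 3 called peaks with the smallest p per class and direction, the peak with the smallest p of each gene, and all called Wnt5a peaks. The peaks named for the other 48 pathway genes, Wls and Ctnnb1, the higher peak of Wnt3 and Wnt9b and the uncalled Wnt5a peak were chosen after their values were seen. With 2 libraries against 2, no permutation of labels can reach p under 0.05, and limma shares its spread across peaks. Alternatives were median centring, quantile normalization, no trend, the upper 75% of peaks by mean signal, a GC correction, the replicate block, other thresholds and windows, and leaving out each library.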

Additional observations from a re-analysis of the deposited data

How the results depend on the processing

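The replicate number of the labels was fitted as a replicate block, giving 53 lower and 67 higher of the 576 peaks, and among the named peaks the block changed 1 call, at the Fzd4 promoter (-0.33). The deviations of replicates 1 and 2 correlated at -0.0106 between the genotypes, so the numbers were not taken as pairs. Of 63 named called peaks 35 kept their call under every alternative refitted. Leaving out a library also leaves fewer degrees of freedom. The Fzd2 promoter, not called at -0.16, ran from -0.42 to 0.10 without single libraries.

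Without single libraries, lower and higher calls ranged over 30 to 39 and 43 to 51 for all 45 genes, 8 to 15 and 15 to 20 for ligands, 10 to 15 and 13 to 16 for receptors, 6 to 8 and 6 to 8 for inhibitors, 1 to 1 and 4 to 6 for TCF/LEF genes, and 22 to 30 and 35 to 49 for the other 48 pathway genes. At an adjusted p under 0.01 in limma there were 31 lower and 45 higher peaks in all, 11 and 16 for ligands and 12 and 16 for receptors. The inhibitors had 6 lower and 6 higher, the TCF/LEF genes 1 and 5, and the other pathway genes 23 and 40. Beyond 2-fold there were 3 lower and 1 higher in all, 1 and 0 for ligands, 0 and 0 for receptors, 2 and 1 for inhibitors, 0 and 0 for TCF/LEF genes, and 1 and 4 for the other pathway genes. Counting only peaks nearest to a listed gene left smaller sets, so smaller counts there are not by themselves smaller shares. This gave 36 lower and 48 higher of 401 in all, and 11 lower and 14 higher of 134 for ligands. The receptors had 14 lower and 14 higher of 124. The other pathway genes had 20 lower and 44 higher, also in a smaller set. A 50 kb window gave 18 lower and 12 higher of 127 for receptors and 6 lower and 8 higher of 53 for inhibitors. A 100 kb window for Wnt5a gave 13 lower and 16 higher of 162 for ligands. Lower TCF/LEF peaks were 5 with median centring, 5 with quantile normalization and 1 among the upper 75% of peaks by mean signal. The other pathway genes had 65 lower and 53 higher with median centring, and the inhibitors had 6 higher with the GC correction. The share of lower peaks with HOX13-type letters was 38.2% with the widened letters. The cause of these shifts was not tested beyond what each alternative changes. The depth behind each peak is unknown, which limits the reading of weak peaks, and rLog shrinkage limits fold thresholds.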
